A study of Mus musculus with 6 samples.

Results

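The genes described here encode sugar transporters: 10 genes, taken by symbol from the 54532 named genes of the count table. They are the sodium-coupled transporters Slc5a1, Slc5a2, Slc5a9 and Slc5a10 and the facilitated transporters Slc2a1, Slc2a2, Slc2a3, Slc2a4, Slc2a5 and Slc2a9. Each symbol matched 1 row. The 10 genes also passed the filter on low counts, so the count of genes tested is the count of genes listed. The rule goes by symbol, but it was drawn up with earlier results of these data known.

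Whole kidneys of mice labelled WT and of mice labelled Lpar3-/-, meant to lack lysophosphatidic acid receptor 3, were compared by sequencing of polyadenylated RNA, with 3 libraries per group. Mice of both groups had breathed 8% oxygen at normal pressure for 12 h before the kidneys were taken, so hypoxia is shared by the groups and its effect cannot be read from them. The sources used here do not give the altered part of Lpar3, the strain, the age or the sex. Nor do they say that each library is a different mouse, and p-values then cover only the spread among these libraries, which may be technical. Lpar3 counts were 645, 634 and 577 in WT against 672, 592 and 580, or 36.3 ± 1.31 against 36.4 ± 2.51 CPM (CPM, counts scaled to a common library size, SD, n = 3 each), so the targeted gene does not separate the groups. The second group is therefore called the libraries labelled Lpar3-/-, and directions rest on the labels. Library totals were 15953794 to 17940438 counts of named genes. Kidney markers were abundant in both groups, with 2342 ± 147 against 2587 ± 85.0 CPM for Umod, which encodes the main protein of normal urine, and 2612 ± 96.6 against 2662 ± 137 CPM for Slc34a1, a phosphate transporter of the proximal tubule.

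Glucose is filtered freely at the glomerulus and is taken back almost completely by the proximal tubule. Sodium-coupled transporters (SGLT proteins, the SLC5 family) use the sodium gradient to carry sugar from the urine into the cell. Some facilitated transporters (GLUT proteins, the SLC2 family), GLUT2 and GLUT1 among them, let glucose leave on the blood side down its gradient. SGLT2 and GLUT2 are known as the pair of the early proximal tubule, SGLT1 and GLUT1 as the high-affinity pair further along, and GLUT5 and SGLT5 as carriers of fructose. Proximal tubule cells make glucose and burn little of it. GLUT1 is also a textbook target of the hypoxia-inducible factors, transcription factors that accumulate when oxygen is low.

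RefSeq windows of build GRCm38.p6 matched 6 of the 10 genes. Slc2a3, Slc2a4, Slc5a2 and Slc5a9 had no window and were not searched. Promoter sequence is shown for a textbook hypoxia target, Slc2a1, and for Slc5a1, the other gene with the same letters among those searched. Slc2a2 is shown beside them. Its libraries did not overlap between the groups, as in 13.7% of all genes tested. Those of Slc2a5 did not overlap either, and its window was searched but is not shown. The 250 bases before each RefSeq start are printed 5′ to 3′ on the gene's strand, here the plus strand for all of them. Capitals mark ACGTG, the core letters bound by hypoxia-inducible factors, and CACGTG, the E-box, which contains ACGTG on both strands.
Slc2a1, chr4:119108495-119108744: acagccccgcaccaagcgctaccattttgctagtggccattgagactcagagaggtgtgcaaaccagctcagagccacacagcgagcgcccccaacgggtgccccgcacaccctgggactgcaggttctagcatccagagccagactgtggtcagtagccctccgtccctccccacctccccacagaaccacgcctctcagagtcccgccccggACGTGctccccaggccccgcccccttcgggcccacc
Slc5a1, chr5:33103969-33104218: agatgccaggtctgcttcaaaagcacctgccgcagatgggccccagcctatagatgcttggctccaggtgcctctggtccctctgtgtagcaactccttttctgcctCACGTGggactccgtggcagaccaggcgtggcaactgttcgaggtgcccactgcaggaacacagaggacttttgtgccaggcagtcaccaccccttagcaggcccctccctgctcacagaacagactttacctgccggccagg
Slc2a2, chr3:28697653-28697902: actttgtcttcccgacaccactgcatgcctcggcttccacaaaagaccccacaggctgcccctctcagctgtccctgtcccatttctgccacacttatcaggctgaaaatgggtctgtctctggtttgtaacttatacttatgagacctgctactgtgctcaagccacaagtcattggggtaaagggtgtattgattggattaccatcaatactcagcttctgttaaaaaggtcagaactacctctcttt
In Slc2a1 the match to ACGTG begins 36 bases before the RefSeq start, and in Slc5a1 the match to CACGTG begins 143 bases before it. The deposited table starts Slc2a1 at base 119108711, upstream of the RefSeq start and inside the match to ACGTG. On either strand, ACGTG is found in 16.6% and CACGTG in 6.02% of the 32851 promoter windows of this length. GTTAAT, part of the sequence bound by the kidney factor HNF1, is found in 6.43% of them and in 1 of the RefSeq windows of Slc5a10. The windows of Slc2a2, Slc2a5 and Slc2a9 held none of these letters. Such matches describe the letters and show no binding.

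Per length of gene, the carriers of the early proximal tubule and SGLT5 led. The authors' FPKM values (counts scaled by gene length and library size) allow levels to be compared between genes. Over the 6 libraries the mean was 103 FPKM for Slc5a2, 90.5 for Slc5a10, 48.9 for Slc2a2, 19.6 for Slc2a5, 16.7 for Slc2a1, 13.7 for Slc5a1, 8.33 for Slc2a4, 4.99 for Slc2a9, 2.90 for Slc5a9 and 0.275 for Slc2a3. Neighbours in this order overlapped in range for Slc5a2 (82.6 to 119 FPKM) and Slc5a10 (82.2 to 100.1), for Slc2a5 (16.8 to 23.1) and Slc2a1 (13.02 to 19.5), and for Slc2a1 and Slc5a1 (12.1 to 16.1). All other neighbours had ranges that did not overlap. The sodium-coupled genes together held 68.7% ± 0.615 of the summed FPKM of the 10 genes in WT and 67.3% ± 1.97 in the libraries labelled Lpar3-/- (SD, n = 3 each).

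**Figure D1:**
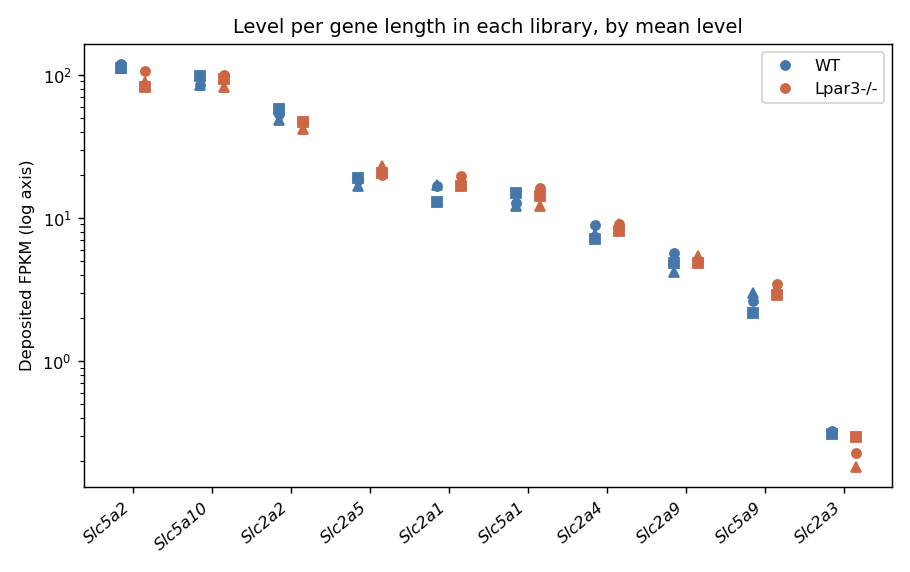
Deposited FPKM (log axis) of each transporter gene, ordered by mean level, with a point per library (circle, square and triangle for replicates 1, 2 and 3). Slc5a2, Slc5a10 and Slc2a2 lie at 41.9 FPKM or more in every library, and Slc2a3 at 0.324 or less.

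Between the groups, none of the 10 genes passed the test over all genes. The lowest p-values went with small differences. Slc5a2 and Slc2a2, the early proximal tubule pair, were 1.23-fold and 1.19-fold lower in the libraries labelled Lpar3-/-, and the fructose carrier gene Slc2a5 was 1.17-fold higher. The edgeR quasi-likelihood test called 0 of the 10 at a Benjamini-Hochberg adjusted p under 0.05, where 0.374% of the 15225 genes tested were called, and DESeq2 and limma-voom also called 0. At an unadjusted p under 0.05 there were 3 of the 10, where the share over all genes was 9.18%. Of these 2 were lower, beside 5.21% of all genes, and 1 was higher, beside 3.97%. In 4 of the 10 genes the libraries of the groups did not overlap, where 13.7% of all genes did not. Of the 4, 3 were lower, beside 7.12% of all genes, and 1 was higher, beside 6.58%. The log2 fold change was positive for 7 of the 10, with a median of 0.07 beside -0.0036 over all genes tested. These kidneys hold many cell types, and fewer cells of a type cannot be told apart from less RNA per cell.

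**Figure D2:**
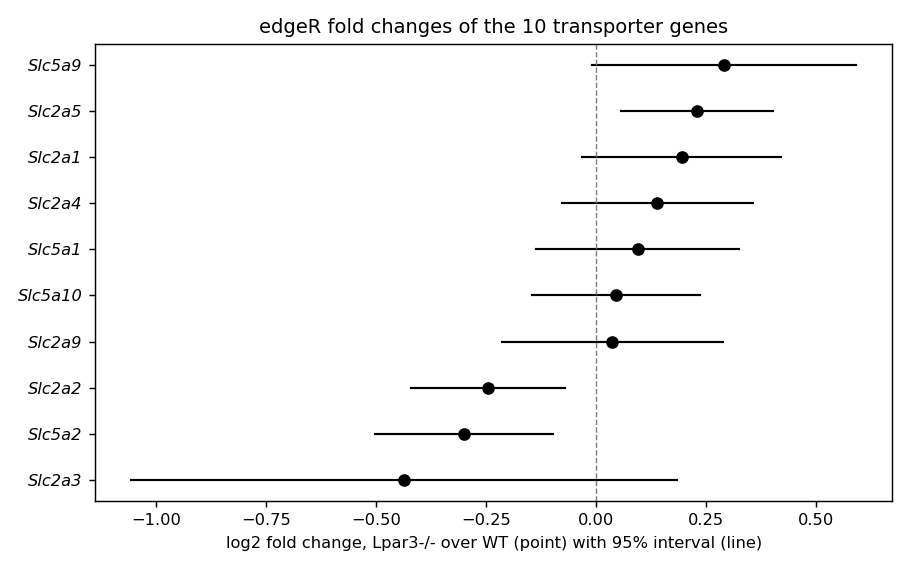
Log2 fold change of each gene, libraries labelled Lpar3-/- over WT (points), with its 95% interval (lines) from the edgeR fit. The intervals of Slc5a2 and Slc2a2 lie below 0 and that of Slc2a5 above it before adjustment, and the other 7 include 0.

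Slc5a2 encodes SGLT2, the low-affinity, high-capacity carrier that takes back most of the filtered glucose. Its counts were 6151, 5493 and 5399 in WT replicates 1 to 3 and 5461, 3824 and 4484 in the libraries labelled Lpar3-/-. Scaled for library size these were 347, 325 and 327 CPM against 311, 241 and 259 CPM. Every WT library lay above every library labelled Lpar3-/-, and the latter spread more widely, replicate 1 being nearest to WT. Group means were 333 ± 12.4 and 270.3 ± 36.4 CPM (SD over 3 libraries). The edgeR fit gave a log2 fold change of -0.30 with an SE of 0.093 and bounds of -0.50 and -0.098 for the 95% interval. This gave an unadjusted p of 0.00719 and an adjusted p of 0.287 (edgeR quasi-likelihood). Without a filter on low counts Slc5a2 alone of the 10 passed (edgeR adjusted p = 0.0191). That fit called 520 of 26645 genes, where the main fit called 57 of 15225. Over all alternatives the adjusted p of Slc5a2 ran from 0.0191 to 0.756.

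The gene lies on chromosome 7 (ENSMUSG00000030781, GRCm38, 128265657 to 128272430, plus strand). In the GENCODE M21 annotation 20.6% of its exon bases are also exon bases of BC017158 on the opposite strand, and no source used here states the strand setting of the counting. BC017158 itself had 21.2 ± 1.64 against 20.7 ± 1.92 CPM, a log2 fold change of -0.03, and thus held few counts beside Slc5a2. The share of Slc5a2 in the summed FPKM of the 10 genes was 36.9%, 34.0% and 36.5% in WT and 32.8%, 28.4% and 31.3% in the libraries labelled Lpar3-/-.

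Slc5a1 encodes SGLT1, the high-affinity carrier that recovers the glucose left over by SGLT2 and also carries galactose. It had 52.8, 61.4 and 50.4 CPM in WT against 66.5, 58.7 and 50.5 CPM. The groups overlapped, and labelled Lpar3-/- replicate 1 and WT replicate 2 were highest. By edgeR the log2 fold change of Slc5a1 was 0.10, with SE 0.11, 95% interval -0.14 to 0.33 and adjusted p = 0.863, and without labelled Lpar3-/- replicate 1 it was -0.0063. Slc5a1 (ENSMUSG00000011034) spans 33104219 to 33162870 on chromosome 5, with no exon shared with another gene.

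Slc5a10 encodes SGLT5, a carrier of fructose and mannose found mainly in kidney. Its level was 202, 232 and 203 CPM in WT against 238, 224 and 196 CPM, and the groups overlapped across nearly their whole range. The fitted log2 fold change was 0.05 with a 95% interval of -0.15 to 0.24, so a rise or fall beyond those bounds lies outside the interval (edgeR adjusted p = 0.931). Without labelled Lpar3-/- replicate 1 it was -0.016. Exons of Fam83g and Grap on the opposite strand cover 16.8% of the exon bases of Slc5a10 (ENSMUSG00000042371, chromosome 11, 61672781 to 61720826, minus strand). Those genes had 19.9 ± 1.43 against 20.5 ± 1.93 CPM for Fam83g and 7.78 ± 0.332 against 8.31 ± 1.13 CPM for Grap.

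Slc5a9 encodes SGLT4, a carrier of mannose and related sugars, and was the least expressed of the sodium-coupled genes. It had 245, 190 and 261 counts in WT against 316, 240 and 292, or 13.6 ± 2.28 against 16.7 ± 1.45 CPM, and after scaling only WT replicate 3 reached into the other group. Its log2 fold change was 0.29 (SE 0.14, 95% interval -0.0083 to 0.59, edgeR adjusted p = 0.562), and without WT replicate 2 it was 0.17.

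Slc2a2 encodes GLUT2, the low-affinity carrier through which glucose leaves early proximal tubule cells. It had 5476, 5613 and 4645 counts in WT against 4643, 4290 and 4209. As CPM the values were 309, 332 and 281 against 264, 270.2 and 243. The groups did not overlap, though WT replicate 3 stood close to the upper libraries of the other group. Group means were 307 ± 25.6 and 259 ± 14.2 CPM (SD over 3 libraries). EdgeR put the log2 fold change at -0.25, its SE at 0.080 and its 95% interval between -0.42 and -0.070. The unadjusted p was 0.0101 and the adjusted p 0.328 (edgeR quasi-likelihood). Slc2a2 (ENSMUSG00000027690) lies on chromosome 3 at 28697903 to 28731359 and shares no exon with another gene.

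Slc2a1 encodes GLUT1, the widely expressed carrier of basal glucose uptake. Its values were 58.7, 45.9 and 60.5 CPM in WT against 68.8, 59.1 and 61.1 CPM. WT replicate 2 was the lowest of the 6 and labelled Lpar3-/- replicate 1 the highest, and the groups overlapped through WT replicate 3. A log2 fold change of 0.20 was fitted (SE 0.10, 95% interval -0.03 to 0.42, edgeR adjusted p = 0.630), and without WT replicate 2 it was 0.081. Slc2a1 (ENSMUSG00000028645, chromosome 4, 119108711 to 119137983) shares 2.99% of its exon bases with Gm12868, which had at most 2 counts in a library.

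Slc2a5 encodes GLUT5, a carrier specific for fructose. It had 1113, 1099 and 958 counts in WT against 1197, 1117 and 1372, or 62.8, 65.0 and 57.9 CPM against 68.2, 70.3 and 79.3 CPM. The groups did not overlap, and labelled Lpar3-/- replicate 3 was the highest of the 6. Its means were 61.9 ± 3.63 and 72.6 ± 5.89 CPM, with a log2 fold change of 0.23 (SE 0.079, 95% interval from 0.057 to 0.40). For Slc2a5 the unadjusted p was 0.0136 and the adjusted p 0.364 (edgeR quasi-likelihood). Slc2a5 is ENSMUSG00000028976 on chromosome 4, 150119283 to 150144169.

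Slc2a9 encodes GLUT9, named as a glucose carrier but known chiefly as a carrier of urate. It had 29.3, 24.9 and 21.4 CPM in WT against 25.1, 24.8 and 27.8 CPM, with the WT libraries both highest and lowest. Its log2 fold change was 0.04 (95% interval -0.21 to 0.29, edgeR adjusted p = 0.958), and it was -0.062 without WT replicate 3 and -0.013 without labelled Lpar3-/- replicate 3.

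Slc2a4 encodes GLUT4, the insulin-responsive carrier of fat and muscle. Its values were 31.3, 24.9 and 27.2 CPM in WT against 31.4, 28.4 and 32.0 CPM, and the groups overlapped. For Slc2a4 the log2 fold change was 0.14 (95% interval -0.08 to 0.36, edgeR adjusted p = 0.754). Without WT replicate 2 it was 0.066, and without WT replicate 1 it was 0.23. Adipocyte markers had negative fold changes in 8 of 8, though edgeR called 0 of them at an adjusted p under 0.05 (lowest 0.0525) and 6 had an unadjusted p under 0.05. Their summed level was 200 to 368 CPM in WT against 144 to 216 CPM, ranges that overlap. Fabp4 made up most of that sum, at 157 ± 43.8 against 118 ± 21.0 CPM. Taken singly, 4 of the 8 markers were lower without overlap between the groups, beside 7.12% of all genes. None of those markers was at 0. The fold change of Slc2a4 was positive, but its interval includes 0. The part of adipocytes in the Slc2a4 values was not tested. Of 6 striated muscle markers only Actn3 was tested, at 0.529 ± 0.0713 against 1.11 ± 0.276 CPM, and Ckm had no count in any library.

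Slc2a3 encodes GLUT3, the high-affinity carrier best known from neurons and also found in blood cells. It was near the limit of measurement, with 42, 38 and 38 counts in WT against 29, 34 and 23. The groups did not overlap, but the log2 fold change of -0.44 had a 95% interval of -1.06 to 0.18 (edgeR adjusted p = 0.721). It was -0.28 without labelled Lpar3-/- replicate 3, and -0.093 by limma on log2(FPKM + 1), a scale that shrinks the change of a gene at this level. Leukocyte markers were on the same side, as 8 of 8 tested had negative fold changes (median -0.56), and their summed level was 119 to 181 CPM in WT against 99.2 to 121 CPM, with 0 called by edgeR at an adjusted p under 0.05 and 4 at an unadjusted p under 0.05. Csf1r, the receptor of macrophage growth factor, led that list at 51.1 ± 5.52 against 49.5 ± 1.09 CPM, followed by the lysozyme gene Lyz2 at 33.1 ± 15.9 against 23.2 ± 6.40 CPM, while Itgam had 2 to 12 counts and was not tested. Their part in the Slc2a3 values was not tested.

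**Figure D3:**
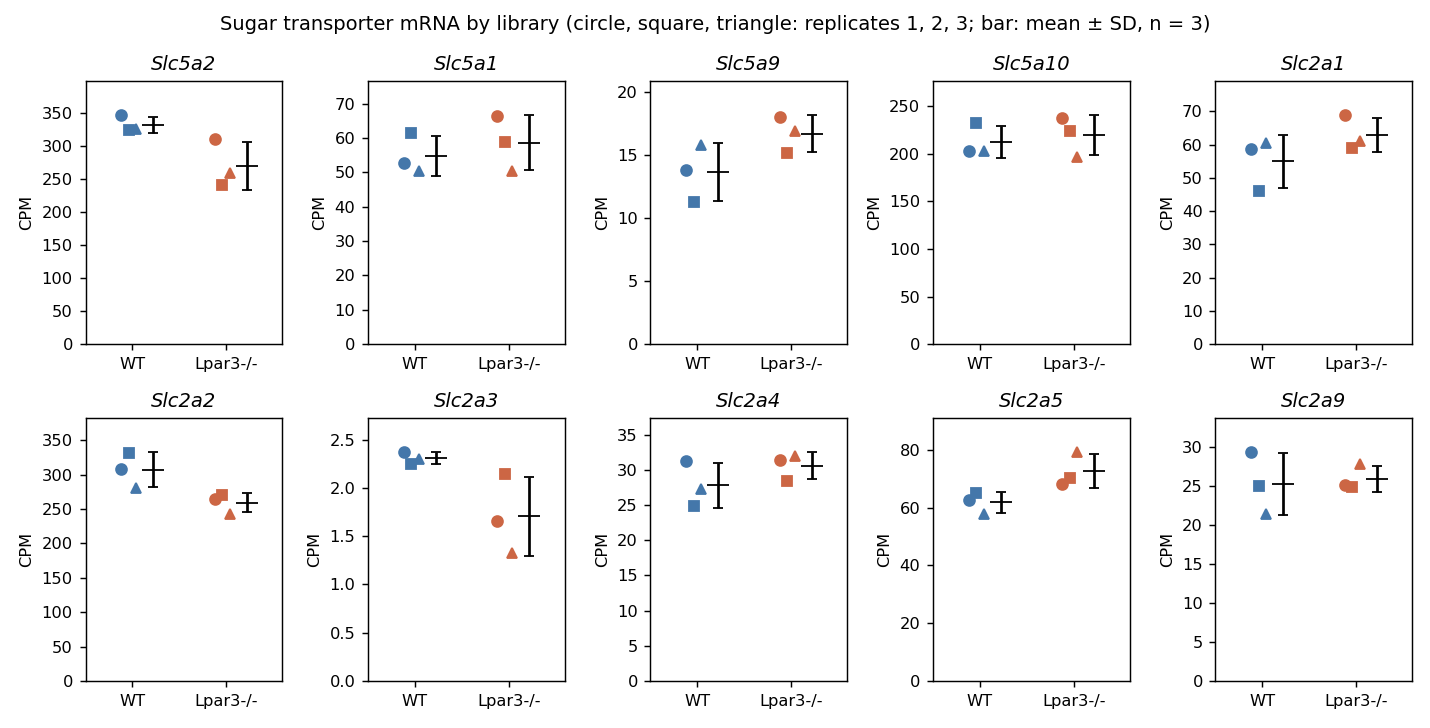
CPM of each transporter gene in each library (circle, square and triangle for replicates 1, 2 and 3), with the group mean ± SD beside the points. The groups separate for Slc5a2, Slc2a2 and Slc2a3 (lower in the libraries labelled Lpar3-/-) and for Slc2a5 (higher), and overlap for the other 6 genes.

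Ratios within a library do not depend on scaling for library size. The log2 ratio of Slc5a2 to Slc5a1 counts was 2.72, 2.41 and 2.70 in WT against 2.23, 2.04 and 2.36 in the libraries labelled Lpar3-/-. No library of either group reached the other, and the means differed by -0.40. The log2 ratio of Slc2a2 to Slc2a1 was 2.40, 2.85 and 2.22 against 1.94, 2.19 and 1.99, a difference of -0.45, with WT replicate 2 well above the rest. For each ratio the exact permutation test gave p = 0.10 (two-sided), the smallest that 3 against 3 libraries allow. Without WT replicate 2 the second difference was -0.26.

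The ratio of Slc5a2 to Slc2a2 overlapped between the groups. Its log2 value was 0.17, -0.03 and 0.22 in WT against 0.23, -0.17 and 0.09, a difference of -0.065 (exact permutation p = 0.70), whose sign turned (0.045) without labelled Lpar3-/- replicate 2. This ratio, and the level of Slc2a2 relative to markers of its segment, were chosen after the values were seen.

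Markers of the same stretch of tubule went both ways. Among 13 markers of proximal tubule segments 1 and 2, 9 fold changes were positive, and the median was 0.04 on the log2 scale. Their summed level was 9818 to 11130 CPM in WT against 10438 to 11101 CPM, and the bicarbonate transporter gene Slc4a4, among the most abundant, had 1988 ± 222 against 1900 ± 73.2 CPM. At an unadjusted p under 0.05, 3 were higher and 2 lower, and edgeR, at an adjusted p under 0.05, called 0 of the 13. Relative to the mean log2 level of these markers, Slc5a2 stood at -0.44, -0.68 and -0.45 in WT and -0.73, -1.01 and -0.96 in the libraries labelled Lpar3-/-, a difference of -0.38 (exact permutation p = 0.10, the smallest possible). Against the median of the markers in place of the mean, the difference was -0.22 (exact permutation p = 0.40). Slc2a2 stood at -0.60, -0.65 and -0.67 against -0.96, -0.84 and -1.05 relative to the mean, a difference of -0.31 (exact permutation p = 0.10). For Slc2a2 the median of the markers was not tried.

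**Figure D4:**
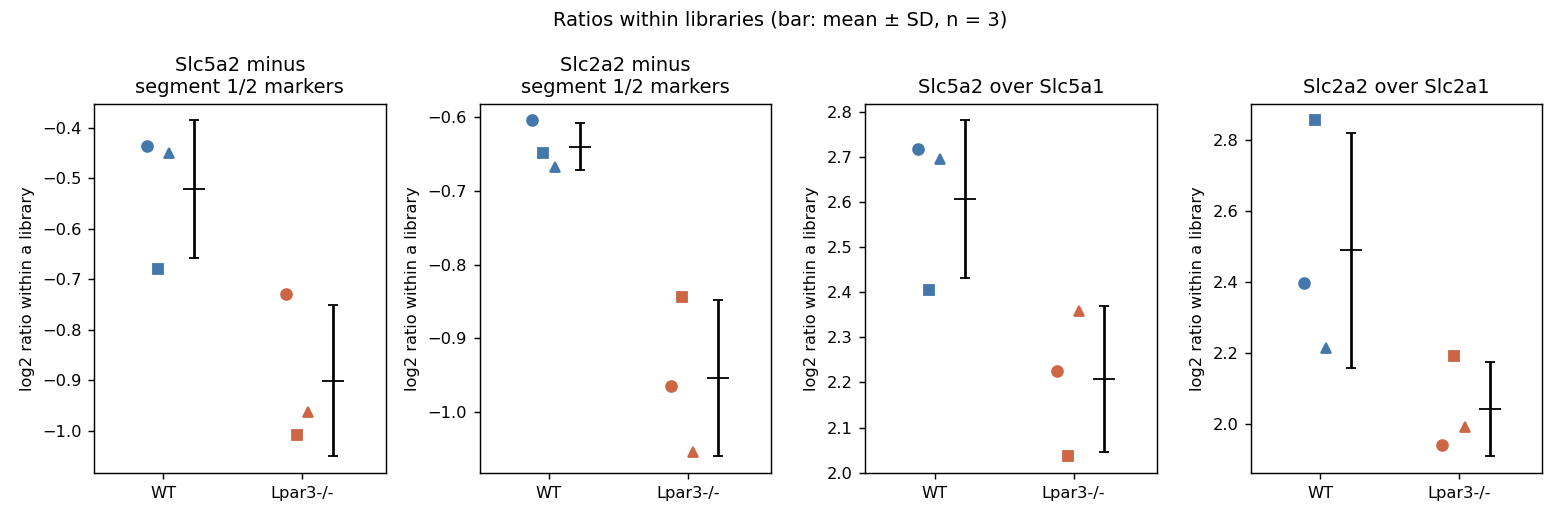
Log2 ratios within each library: Slc5a2 and Slc2a2 relative to the mean of 13 markers of proximal tubule segments 1 and 2, Slc5a2 over Slc5a1, and Slc2a2 over Slc2a1, with group mean ± SD. In each panel the 3 WT libraries lie above the 3 libraries labelled Lpar3-/-.

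Markers of segment 3, the last stretch of the proximal tubule, had negative fold changes in 6 of 8 (median -0.31 on the log2 scale), and Cyp7b1, an oxysterol hydroxylase, was the only one called (163 ± 43.5 against 84.0 ± 15.01 CPM, edgeR adjusted p = 0.0357, named after its value was seen). Their summed level overlapped between the groups (2186 to 3015 CPM in WT against 2253 to 2447). Of its 2 most abundant genes, the lipid flippase gene Atp11a had 1034 ± 279 against 919.8 ± 45.7 CPM and the amino acid transporter gene Slc6a18 had 666 ± 42.6 against 746 ± 11.5 CPM. Against the mean of these markers, Slc5a1 differed by 0.49 and Slc2a5 by 0.63 on the log2 scale between the groups (exact permutation p = 0.10 for each, both chosen after seeing the values). These differences include the lower mean of the markers, as the log2 fold changes of Slc5a1 and Slc2a5 themselves were 0.10 and 0.23. The median of these markers was not tried in place of the mean. Loop, distal tubule and collecting duct markers had positive fold changes in 7 of 8, with a summed level of 4296 to 4892 CPM in WT against 5118 to 5488 CPM. Among them Slc12a1, the main salt carrier of the loop of Henle, had 1087 ± 74.1 against 1429 ± 64.1 CPM. For Slc12a1 the log2 fold change was 0.39 (edgeR adjusted p = 0.0613). EdgeR called 0 of these 8 at an adjusted p under 0.05, and only Slc12a1 had an unadjusted p under 0.05. The part of any of these shifts in the transporter values was not tested.

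Other sugar and polyol transporters were mostly on the higher side. Fold changes were positive for 7 of the 9 tested (median 0.17), 2 at an unadjusted p under 0.05 were higher and 0 lower, and edgeR called 0 at an adjusted p under 0.05. Slc2a12, which encodes GLUT12, had 13.5 ± 1.22 against 18.6 ± 1.59 CPM (log2 fold change 0.46, edgeR adjusted p = 0.158). Slc5a3, the sodium-coupled carrier of the osmolyte myo-inositol, had 133 ± 34.8 against 174 ± 12.5 CPM (0.39, edgeR adjusted p = 0.431). In both, the libraries labelled Lpar3-/- were higher without overlap, beside 6.58% of all genes. Slc50a1, a SWEET sugar carrier, had 14.7 ± 0.621 against 12.6 ± 0.949 CPM. It was lower without overlap, beside 7.12% of all genes. Slc2a6 and Slc5a4b were too low to test, with at most 14 counts in a library.

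Enzymes that receive or make these sugars showed a small mixed pattern. Fold changes were negative for 10 of the 13 tested (median -0.06), and at an unadjusted p under 0.05 there were 2 lower and 1 higher, with 0 called by edgeR at an adjusted p under 0.05. Akr1b3, the aldose reductase of the polyol pathway that turns glucose to sorbitol, had 232 ± 30.9 against 184 ± 16.5 CPM (log2 fold change -0.33, edgeR adjusted p = 0.288). Pck1, the gluconeogenic enzyme phosphoenolpyruvate carboxykinase, had 5725 ± 24.9 against 5018 ± 453 CPM. Hk1, the hexokinase that traps glucose in the cell, had 134 ± 15.3 against 153 ± 2.91 CPM. Hk3 had at most 7 counts in a library and was not tested.

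Regulators of these transporters were spread evenly around 0. Of 17 tested, 9 were positive and 8 negative in fold change (median 0.0089), and 0 had an unadjusted p under 0.05 in edgeR. Mlxipl, which encodes the glucose-sensing factor ChREBP, had 124 ± 24.3 against 104 ± 11.9 CPM. Txnip, an arrestin that promotes removal of GLUT1 from the cell surface, had 540 ± 59.0 against 619 ± 50.3 CPM. Pdzk1ip1 encodes MAP17, the partner protein that SGLT2 needs for activity, and had 421 ± 62.1 against 475 ± 19.5 CPM, with the opposite sign to Slc5a2.

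Urate handling genes, listed because of Slc2a9, divided into 5 with a negative and 4 with a positive fold change. At an unadjusted p under 0.05 there were 4, all lower, and edgeR called 0 at an adjusted p under 0.05. Slc17a1 and Slc17a3, anion transporters of the apical membrane that carry urate, had 457 ± 33.8 against 344 ± 17.8 CPM (log2 fold change -0.41, edgeR adjusted p = 0.0525) and 342 ± 53.8 against 236 ± 17.8 CPM (-0.53, edgeR adjusted p = 0.0682). Xdh, whose product makes urate, had 36.2 ± 2.90 against 31.1 ± 2.77 CPM.

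**Figure D5:**
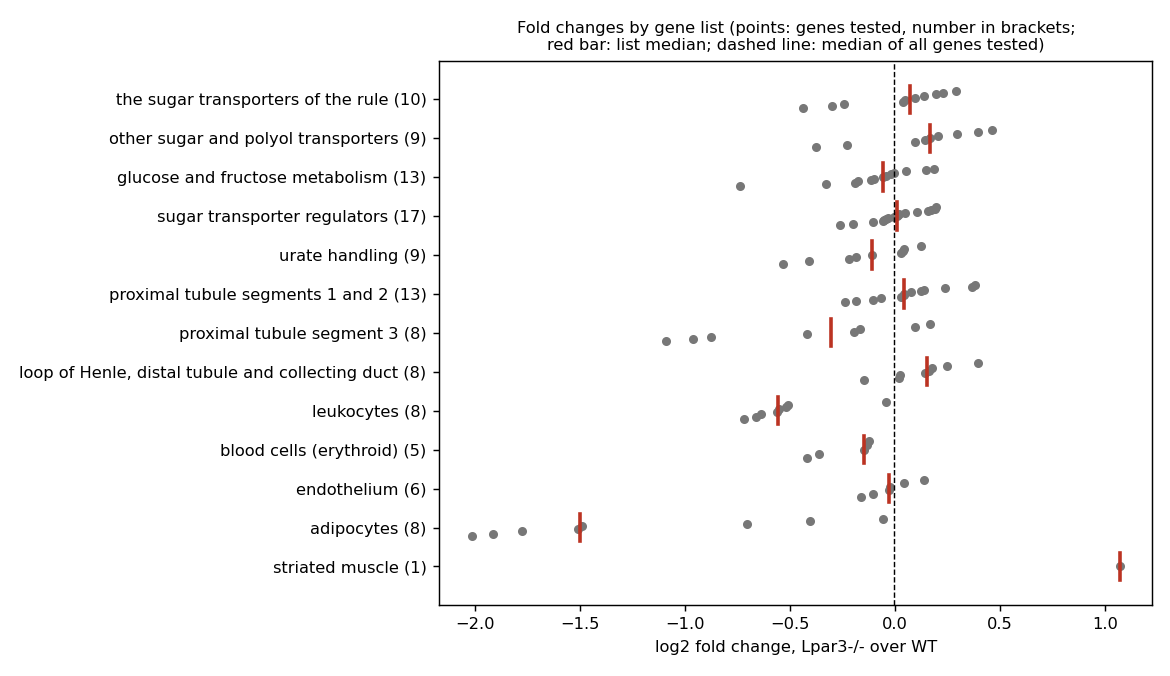
Log2 fold changes (libraries labelled Lpar3-/- over WT) of the genes tested in each list, with the list median as a red bar and the median of all genes tested as a dashed line. The sugar transporters centre on 0.07, leukocyte markers on -0.56 and adipocyte markers on -1.50.

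The remaining marker lists give the other cells in these libraries. Erythroid genes were negative in 5 of 5 tested with overlapping summed levels (342 to 625 CPM in WT against 319 to 563), led by the globin genes Hbb-bs (256 ± 79.7 against 234 ± 71.7 CPM) and Hba-a1 (178 ± 48.9 against 161 ± 37.2 CPM). Endothelial markers were negative in 4 of 6, with Plvap, a protein of endothelial windows, at 174 ± 11.6 against 171 ± 8.74 CPM and Pecam1, an adhesion protein, at 77.9 ± 2.27 against 69.6 ± 3.45 CPM. Adipocyte markers were led by Fabp4, a fatty acid binding protein, at 157 ± 43.8 against 118 ± 21.0 CPM, and Cfd, the complement protease adipsin, at 59.3 ± 21.6 against 15.9 ± 11.6 CPM.

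The genes whose pattern over the 6 libraries was most like that of Slc5a2 were Unc13b, Dusp18, Pgm3, Ror1 and Pon2. The search took in 9235 genes with a mean of at least 10 CPM, with predicted and clone-named genes left out. Likeness was the root mean square difference of log2 CPM centred on each gene's mean. It was 0.0409 for Unc13b, a vesicle priming protein gene, and 0.0692 for Pgm3, an enzyme of UDP-N-acetylglucosamine synthesis. Unc13b had 14.3 ± 0.324 against 11.9 ± 1.29 CPM and Pgm3 21.8 ± 0.473 against 17.5 ± 2.10 CPM. With 6 libraries and so many genes, close matches of this kind describe the libraries only.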

How the data were processed

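Kidney RNA of 6 libraries was analysed, 3 labelled WT and 3 labelled Lpar3-/-, grouped by their titles. The deposited counts are whole reads per gene, and the authors' FPKM values are scaled by gene length and library size. HISAT2 2.0.5, featureCounts 1.5.0-p3, DESeq2 1.20.0 and GRCm38 are named per the submitters' processing notes. No source used here states the annotation release, the strand setting or the treatment of shared reads. The 377 rows without a gene name (0.259% to 0.362% of a library) were left out.

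The test was edgeR 4.0.16 quasi-likelihood (R 4.3.3), with TMM, its default filter and Benjamini-Hochberg adjustment over 15225 genes, a gene being called at an adjusted p under 0.05. Standard errors came from the fold change and F statistic. The common coefficient of variation was 10.5%. Ratios were tested by exact permutation. Alternatives were DESeq2 1.42.0, limma-voom (limma 3.58.1), other scalings and filters, limma on log2 FPKM with pseudocounts of 1 and 0.1, a replicate block and each library left out. The fit was tested on simulated data. The 10 genes and all lists were chosen with earlier results of these data known. Named beside them were the 3 lowest p of each pathway list, the 2 most abundant genes of each marker list and the 5 genes most like Slc5a2.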

Additional observations from a re-analysis of the deposited data

How the results depend on the processing

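Of the 15 alternatives, 14 called 0 of the 10 transporter genes. The fit without a filter called 1 (Slc5a2). It called 520 of 26645 genes in all, against 57 of 15225 in the edgeR fit described. Across all genes the count was 171 of 15902 with DESeq2. It was 9 and 13 of 18499 with limma on log2(FPKM + 1) and log2(FPKM + 0.1). With a library left out it ran from 12 to 149. The count was 149 of 15595 without WT replicate 1 and 26 of 15623 without labelled Lpar3-/- replicate 2. Without labelled Lpar3-/- replicate 1 it was 12 of 15592, and without its replicate 3 it was 12 of 15561. The number of transporter genes at an unadjusted p under 0.05 (3) became 5 without a filter (8.07% of all genes in that fit) and ran from 1 (without labelled Lpar3-/- replicate 3, 6.3% of all genes) to 5 (without WT replicate 3, 9.24%) with a library left out. By edgeR, Slc5a2 missed it without labelled Lpar3-/- replicate 2 (0.0515), and Slc2a2 (0.0617) and Slc2a5 (0.0799) without its replicate 3. Signs turned for Slc2a9 without WT replicate 3 (-0.062) or labelled Lpar3-/- replicate 3 (-0.013), for Slc5a1 (-0.0063) and Slc5a10 (-0.016) without labelled Lpar3-/- replicate 1, and for the ratio of Slc5a2 to Slc2a2 without replicate 2. Their ranges with a library left out were -0.062 to 0.16 for Slc2a9, -0.0063 to 0.19 for Slc5a1, -0.016 to 0.12 for Slc5a10 and -0.16 to 0.045 for that ratio. With a library left out, Slc5a2 relative to its segment's markers differed by -0.46 to -0.32, relative to Slc5a1 by -0.50 to -0.31, and Slc2a2 relative to Slc2a1 by -0.58 to -0.26. Slc2a3 moved from -0.44 to -0.093 by limma on log2(FPKM + 1), where the pseudocount exceeds its FPKM. The cause of the other shifts was not tested.

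The replicate block called 80 genes in all and 0 of the 10, with 5 of the 10 at an unadjusted p under 0.05, beside 9.47% of all genes. Same-numbered libraries did not deviate together over all genes (correlations of -0.0078, -0.0028 and 0.04). A pairing that moves few genes, or moves them little, would not show in such correlations. Whether the numbers pair the samples is therefore not known. Counts of 23 to 42 limit Slc2a3, while the other genes had at least 190 counts in a library.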
